A study of Mus musculus with 83 samples.

Results

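A set of 10 imprinted names outside the *Dlk1-Dio3* and *Sfmbt2* clusters were followed through the small RNA libraries by matching *H19*, *Mir675*, *Igf2*, *Mest*, *Mir335*, *Mir296*, *Mir298*, *Peg3*, *Snrpn* and *Kcnq1ot1* to the feature names of the deposited table. Of these 10, 9 were found among 32101 features. *Kcnq1ot1* has no feature of its own name, and *Kcnq1* was not used in its place. Whether its reads were counted under another name is not known. The study asked what small RNAs, of 20 to 24 nt, do when DNA methylation is lost acutely. Its model was a line of mouse embryonic stem cells (ESCs) that carries loxP sites in both copies of *Dnmt1*, the maintenance DNA methyltransferase, and an inducible Cre recombinase switched on by tamoxifen. The labels give the strain as E14, whereas the study's methods give C57BL/6. Cells without the deletion (control) and deleted cells (Dnmt1 KO) were sequenced on days 1, 3, 6, 9, 11 and 25, with 3 replicates per group and 36 libraries in all, and whether the controls received tamoxifen is not given in the sources used here. AGO2 pull-downs comprised 4 control and 4 Dnmt1 KO libraries, for which the labels give no day. Primordial germ cells (PGCs, from which eggs and sperm arise) of E13.5 and E14.5 embryos, sorted by an Oct4-GFP reporter, gave 1 library per stage and sex. For the AGO2 pull-downs, for a pair of libraries titled none, and for a further set of time course libraries with an R1 suffix, the genotype tag in the sample table is opposite to the genotype in the title (except on day 11 of the R1 set). Groups follow the titles here, and where the tags were right instead, the sign of every genotype difference in those libraries would be turned. The sample table calls the replicates biological without saying what was cultured apart, so that p-values measure the spread between these samples.

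An imprinted gene is read from only the maternal or only the paternal copy. The choice is held by DNA methylation at control regions that is laid down in the germline, kept up by DNMT1 at each cell division, and erased in PGCs. *H19* is a maternally expressed noncoding RNA whose exon encodes *Mir675*, and *Igf2*, a paternally expressed growth factor with *Mir483* in an intron, shares its control region. *Mest* encodes a paternally expressed hydrolase-like protein and hosts *Mir335* in an intron. *Mir296* and *Mir298* lie beside the *Gnas* and *Nespas* cluster. *Peg3*, a zinc finger protein, and *Snrpn*, a splicing factor, are paternally expressed.

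The mature miRNAs of the 4 miRNA members are shown because 3 of the hairpins carry the most abundant signal of these loci and because the seed (bases 2 to 8, in capitals), with which AGO2 finds targets, sets them apart. Sequences are the RefSeq entries (build GRCm38.p6), and all 8 arms were found letter for letter inside the corresponding hairpin feature in NCBIM37, each at 1 place in that genome.
miR-335-5p: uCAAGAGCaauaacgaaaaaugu
miR-335-3p: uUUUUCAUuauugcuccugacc
miR-296-5p: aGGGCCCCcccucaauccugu
miR-296-3p: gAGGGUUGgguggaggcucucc
miR-298-5p: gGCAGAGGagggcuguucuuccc
miR-298-3p: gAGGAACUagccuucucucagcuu
miR-675-5p: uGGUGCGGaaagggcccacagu
miR-675-3p: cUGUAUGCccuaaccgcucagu
No other mature mouse miRNA in the RefSeq table had any of these 8 seeds, and no other miRNA feature shared a run of 20 bases with the 4 hairpins. The table counts hairpins, so the 2 arms of a hairpin cannot be told apart here. In NCBIM37 with GENCODE vM1, the *Mir335* hairpin (plus strand, chr6:30691299-30691396) is intronic in *Mest* (chr6:30673547-30698457). The *Mir675* hairpin (minus strand, chr7:149762969-149763052) lies in an exon of *H19* (chr7:149761434-149764048). *Mir296* (chr2:174092548-174092626) and *Mir298* (chr2:174093005-174093086) lie 378 bases apart on the minus strand, outside any annotated gene, and a gap of 13651 bases separates *Mir298* from the nearer end of *Nespas*. *Igf2* (chr7:149836673-149852721, 72624 bases from *H19*), *Peg3* (chr7:6656603-6683132) and *Snrpn* (chr7:67127388-67285105) are on the minus strand too. Strand is not stated for the counting, so reads of *Igf2* and of its antisense gene *Igf2as*, and of *Mest* and the overlapping antisense gene *Copg2*, cannot be told apart.

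Values are RPM, the reads of a feature scaled to 1000000 reads of its library. Libraries held 870481 to 6239009 reads on days 1 to 11 and 521066 to 815523 on day 25, so 1 read is worth over 1 RPM on the last day and low values there are coarse. Small RNA reads on *Dnmt1* itself overlapped between the genotypes on days 1, 3, 9 and 25. They were higher in every Dnmt1 KO library on day 6 (23.1 to 35.1 against 41.6 to 48.0 RPM) and in AGO2 (0.783 to 1.77 against 2.34 to 4.50 RPM), and lower in every Dnmt1 KO library on day 11 (29.9 to 32.0 against 18.1 to 25.6 RPM). These short fragments do not tell the level of the mRNA, and the deletion is not checked by them. The 12 ESC miRNAs of the *Mir290* and *Mir302* clusters summed to 110780 to 209785 RPM in every time course library. Their sum separated the genotypes on all 6 days, with every Dnmt1 KO library above the controls on days 1, 3 and 6 (111105 to 114800.0 against 130508 to 139222 RPM on day 6) and below them on days 9, 11 and 25 (176156 to 209785 against 136659 to 141633 RPM on day 25). Of 5 measured fibroblast and mesenchymal miRNAs, markers of feeder cells, 4 were detected, with *Mir199a-1* at 0. The study cultured ESCs with or without feeders and the labels do not say which libraries had them. The sum of this list was higher in every Dnmt1 KO library than in every control library on days 3, 6, 9, 11 and 25 (6132 to 7144 against 11242 to 12515 RPM on day 6, 10984 to 14913 against 20919 to 22910.2 on day 9, 10596 to 11209 against 12417 to 14632 on day 11 and 954 to 1049.6 against 1247 to 1292 on day 25). The 3 blood miRNAs did likewise on days 6, 9 and 11 (576 to 656 against 1615 to 2079 RPM on day 11) and the reverse on days 1 and 25, and the neural, liver and muscle lists stayed at or under 11.4 RPM. The part of these lists in the members' results was not tested, and in bulk RNA fewer cells of a type and less RNA per cell cannot be told apart.

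The question put to the time course was whether these loci respond to the loss of *Dnmt1*, and when. Of the 9 features, 6 had at least 10 RPM in at least 3 libraries and entered the limma fit of 2582 features: *Mir335*, its host *Mest*, *Mir296*, *Mir298*, *Peg3* and *H19*. *H19* passed this filter only through its 3 Dnmt1 KO libraries of day 25. *Mir675*, *Igf2* and *Snrpn* stayed below it. A feature was called at an adjusted p under 0.05, where the adjustment covers all features of the comparison. On day 1 no member was called, where 2.87% of all features were called higher in Dnmt1 KO. Since *H19* passed the filter only where it was high, in Dnmt1 KO, it is left out of the counts of calls. On day 3 none of the other 5 features was called, where 4.49% of all features were called higher. On days 6, 9 and 11 all 5 were called higher, against 13.7%, 12.3% and 6.27% of all features. On day 25 1 of the 5, *Mir296*, was called higher, against 18% of all features. *H19* was also called higher on days 3, 6, 9 and 11, which is not counted here. The median log2 fold change of the 6, *H19* included, was 0.41, 0.56 and 1.09 on days 6, 9 and 11, where the median over all features was 0.14, 0.09 and −0.05. *Mest* and *Mir335* are nearly the same reads, so the 6 stand for 5 loci at most, *H19* among them. All 3 Dnmt1 KO libraries lay above all 3 controls for each of the 6 on days 6, 9 and 11, an arrangement that 32.1%, 21.4% and 11.8% of the 2582 features showed. The same arrangement held for *Mir296* on day 1 (15.6%) and *H19* on day 3 (12.9%) and day 25 (11.7%), the last being the libraries that carried it through the filter. No member turned in sign on days 6, 9 or 11 under any alternative tried. Scaling moved the split of calls over all features: with library totals in place of TMM factors, 73.6% of called features were higher on day 6 instead of 59.5%, 49.4% on day 9 instead of 66.7%, 60.5% on day 11 instead of 72.6%, 38.9% on day 25 instead of 51.3% and 90.3% on day 1 instead of 75.5%, whereas median-ratio factors gave 43.8% on day 6. Library totals moved the median of all features by −0.11 on the log2 scale on day 9 and by −0.10 on day 25, and by less on the other days.

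*Mir335* was higher in Dnmt1 KO on days 6, 9 and 11 and overlapped the control range on day 25. Its host transcript had few reads of its own, since 99.8% of the reads on *Mest* (150950 of 151241 in the time course) lay in the *Mir335* hairpin. On day 1 the control libraries held 1384, 1347 and 1339 RPM and the Dnmt1 KO libraries 1203, 1254 and 1240.1. The difference was not called (log2 fold change −0.23 ± 0.09 (SE), limma adjusted p = 0.208). On day 3 the groups overlapped, at 1135, 1068 and 1072 RPM in control and 1276, 1104 and 1050.2 in Dnmt1 KO. On day 6 the controls held 1148, 1125 and 1117 RPM and the Dnmt1 KO libraries 1633, 1529 and 1519.8, a difference of 0.36 ± 0.09 on the log2(RPM + 1) scale (limma adjusted p = 0.00293). That call was lost without Dnmt1 KO replicate 1 (0.22) or replicate 3 (0.26), and with low features kept (0.31). On day 9 the values were 1399, 1284 and 1299 RPM against 1848, 1738 and 1843 (0.56 ± 0.09, limma adjusted p = 6.66e-06). Day 11 showed the widest gap of the 6 days, with 697, 649 and 646 RPM in control and 1417, 1287 and 1312 in Dnmt1 KO. This is 2.13-fold in the fit (1.09 ± 0.09, limma adjusted p = 8.69e-13). The gap came with a low control level: over the days the control means ordered as day 11 (664 RPM), day 3 (1092), day 6 (1129.9), day 9 (1327), day 1 (1357) and day 25 (2465), where days 3 and 6, and days 9 and 1, overlapped. On day 25 both genotypes were at their highest, 2635, 2614 and 2147 RPM in control and 2530.3, 2786 and 2371 in Dnmt1 KO, and overlapped (0.17 ± 0.09, limma adjusted p = 0.153). From day 1 to day 25 the feature rose in control by 0.72 ± 0.09 (limma adjusted p = 1.34e-08) and in Dnmt1 KO by 1.12 ± 0.09 (limma adjusted p = 1.58e-13). The reads of *Mest* outside the hairpin came to 95 in the 18 control and 196 in the 18 Dnmt1 KO libraries, a mean of 2.22 and 3.59 RPM.

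**Figure D1:**
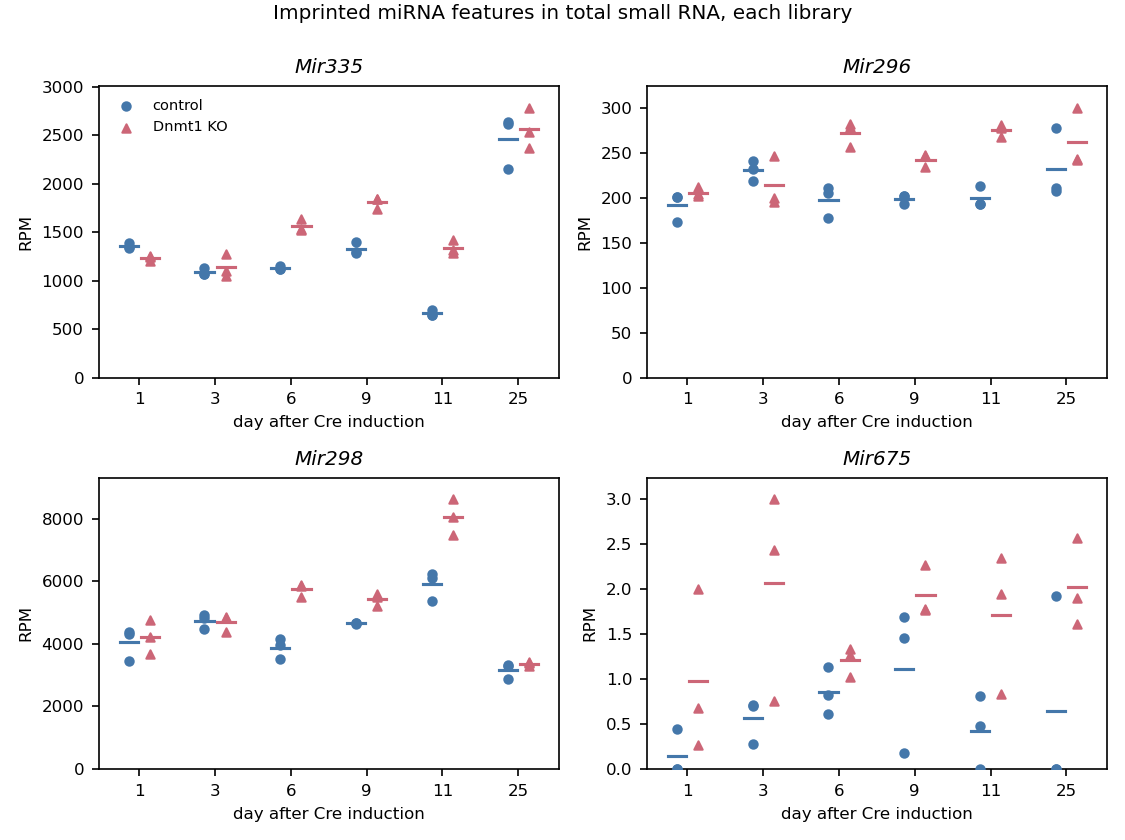
RPM of the 4 imprinted miRNA features by day in total small RNA, with 1 point per library (circles, control; triangles, Dnmt1 KO; 3 per group) and a bar at each mean. *Mir335*, *Mir296* and *Mir298* separate by genotype on days 6, 9 and 11, and *Mir675* stays at or under 3.00 RPM.

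The *Mir296* and *Mir298* hairpins, 378 bases apart, were both called higher in Dnmt1 KO on days 6, 9 and 11, while their levels followed different courses over the days. *Mir298* was the most abundant member per length (median 54028 RPKM in control, where RPKM is RPM per kilobase of feature), followed by *Mir335* (12409) and *Mir296* (2578). On days 1 and 3 neither was called, with log2 fold changes of −0.03 and 0.0026 for *Mir298* and 0.02 and −0.10 for *Mir296*. On day 6 *Mir298* stood at 4157, 3524 and 3948 RPM in control and 5851, 5489.8 and 5883 in Dnmt1 KO (0.46 ± 0.09, limma adjusted p = 0.000239). On day 9 it was 4639, 4664 and 4665 against 5596, 5494 and 5194 RPM (0.34 ± 0.09, limma adjusted p = 0.00856). The groups did not overlap on either day, but both calls were lost with low features kept (0.41 and 0.32) and the day 9 call without Dnmt1 KO replicate 1 or 2 and with library totals (0.22, limma adjusted p = 0.0937) as well. On day 11 both groups were at their highest, 5378, 6115 and 6226 against 8619.5, 8045 and 7478 RPM, 1.44-fold in the fit (0.53 ± 0.09, limma adjusted p = 4.92e-05). On day 25 the level was at its lowest, 3279, 2873 and 3334 against 3421, 3294 and 3381 RPM, and the groups overlapped (limma adjusted p = 0.0913). *Mir298* fell from day 1 to day 25 in control, by 0.49 on the log2 scale (limma adjusted p = 3.57e-05). It also fell in Dnmt1 KO, by 0.25 (limma adjusted p = 0.0257), a call that was lost without Dnmt1 KO replicate 1 or 2 of either day, at the lowest by 0.14 without day 1 replicate 1. The control means ordered as day 25 (3162 RPM), day 6 (3876), day 1 (4054), day 9 (4656), day 3 (4739) and day 11 (5907), where days 6 and 1, and days 9 and 3, overlapped and the other neighbours did not.

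*Mir296* varied less. On day 6 the control libraries held 178, 211 and 205 RPM and the Dnmt1 KO libraries 282, 257 and 279 (0.36 ± 0.11, limma adjusted p = 0.0129). On day 9 the values were 202, 202 and 193 against 247, 234 and 247 RPM (0.40 ± 0.11, limma adjusted p = 0.00642). Both days showed no overlap, yet neither call held against all choices. Both were lost with low features kept. The day 6 call was also lost with median-ratio factors (0.26, limma adjusted p = 0.101), with *Mir675* and the other hairpins taken off their hosts (0.27), and without control replicate 1 or Dnmt1 KO replicate 1 or 3, and the day 9 call with library totals (0.28, limma adjusted p = 0.0678) and without Dnmt1 KO replicate 1 or 3. On day 11 the gap was 213, 194 and 194 against 278, 281 and 268 RPM (1.46-fold, 0.54 ± 0.11, limma adjusted p = 0.000284), and this call held without each library in turn. On day 25 the groups overlapped, at 208, 278 and 211 and 301, 243 and 243 RPM. The call of that day (0.29 ± 0.11, limma adjusted p = 0.0358) was lost without control replicate 1 or 3 or Dnmt1 KO replicate 1, and with library totals (0.18), voom weights (0.30), the replicate number as a block (limma adjusted p = 0.055), low features kept (0.25) and day 25 fitted alone (0.29).

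*H19* showed the largest fold difference of the members, from very few reads. Fitted folds are on the log2(RPM + 1) scale, which understates the change of such low genes, so the ratio of reads per total is given beside them with its 95% counting interval. On day 1 the control libraries held 1.45, 2.21 and 1.15 RPM and the Dnmt1 KO libraries 2.00, 1.07 and 2.04. The groups overlapped and the difference was not called (limma adjusted p = 0.999). On day 3 the values were 2.15, 1.39 and 0.560 against 3.81, 6.60 and 4.60 RPM (1.37 ± 0.39, limma adjusted p = 0.0257). The groups no longer overlapped, but this call was lost without control replicate 2 or 3 or Dnmt1 KO replicate 2, at a pseudocount of 0.5 RPM (limma adjusted p = 0.0564), with low features kept, and when the *Mir675* reads were taken off (1.15, limma adjusted p = 0.0818). On day 6 they were 0.915, 2.48 and 1.13 against 6.00, 6.95 and 5.80 RPM (2.85-fold in the fit, read ratio 4.25, 2.21 to 8.99, limma adjusted p = 0.00332) and on day 9 2.18, 0.882 and 2.00 against 7.75, 8.09 and 8.17 (3.74-fold in the fit, read ratio 4.90, 3.19 to 7.82, limma adjusted p = 0.000297). On day 11 they were 1.89, 0.954 and 0 against 4.20, 5.30 and 5.17 RPM (3.44-fold in the fit, read ratio 4.61, 2.43 to 9.64, limma adjusted p = 0.00111). These 3 calls held without each library in turn, but they come from the fit whose filter *H19* passed only through Dnmt1 KO libraries of day 25. On day 25 the controls held 0, 1.92 and 0 RPM, which is 1 read in 1 of 3 libraries, and the Dnmt1 KO libraries 12.9, 23.1 and 17.1 RPM, which is 35 reads. The ratio of these reads per total was 34.3, with a 95% counting interval of 5.77 to 1395, and the fitted log2 fold change of 3.68 ± 0.39 depends on the pseudocount and is no bound. Its p is not given, since these same libraries carried *H19* through the filter. With all features kept, so that no filter chose it, the difference was 3.40 ± 0.37 (limma adjusted p = 2.88e-08).

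Most of the *H19* reads in Dnmt1 KO came from outside the miRNA. *Mir675* took 34 of 69 *H19* reads in control (49.3%, 95% Wilson interval 37.8 to 60.8%) and 109 of 381 in Dnmt1 KO (28.6%, 24.3 to 33.3%). The intervals cover counting error only, over pooled libraries. Outside *Mir675* no control library of day 25 had a read, against 11.25, 20.5 and 15.2 RPM (31 reads) in Dnmt1 KO. The 95% counting interval of this ratio begins at 7.77. Averaged over the 6 days, reads outside *Mir675* were 4.93 RPM higher in Dnmt1 KO, with a higher mean on 5 of 6 days (two-sided permutation test within days, 100000 resamples, p = 1e-05, the smallest these resamples can give). *Mir675* itself was rare, with 0 to 8 reads in each control library and at most 15 in a Dnmt1 KO library. Its mean was higher in Dnmt1 KO on 6 of 6 days, by 1.03 RPM on average (the same permutation test, p = 3e-05), and the groups did not overlap on days 3, 9 and 11, where 4.64%, 7.11% and 5.15% of all features with a read had every Dnmt1 KO library above every control. On day 9 it stood at 1.69, 0.176 and 1.45 RPM in control and 1.78, 2.26 and 1.76 in Dnmt1 KO.

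*Peg3* was called higher in Dnmt1 KO on days 6, 9 and 11 and not called on days 1, 3 and 25. On day 6 the control libraries held 11.9, 7.43 and 7.37 RPM and the Dnmt1 KO libraries 25.7, 24.7 and 21.5, 2.4-fold in the fit (1.26 ± 0.24, limma adjusted p = 8.18e-05). On day 9 they held 7.74, 9.35 and 7.45 and 23.3, 14.1 and 24.5 RPM (1.32 ± 0.24, limma adjusted p = 4.38e-05), and on day 11 4.31, 5.72 and 6.59 and 12.2, 12.5 and 11.7 (1.098 ± 0.24, limma adjusted p = 0.00098). The groups were apart on all 3 days, and no single library decided these calls. The control level fell to its lowest on day 11, as for *Mir335*, and on day 25 it was back at 21.5, 23.0 and 13.49 RPM, overlapping 22.5, 17.9 and 15.2 in Dnmt1 KO (limma adjusted p = 0.865). These are fragments of 20 to 24 nt spread over a 26530-base gene span, not a miRNA, and 451 such reads in control and 1088 in Dnmt1 KO carry the result.

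**Figure D2:**
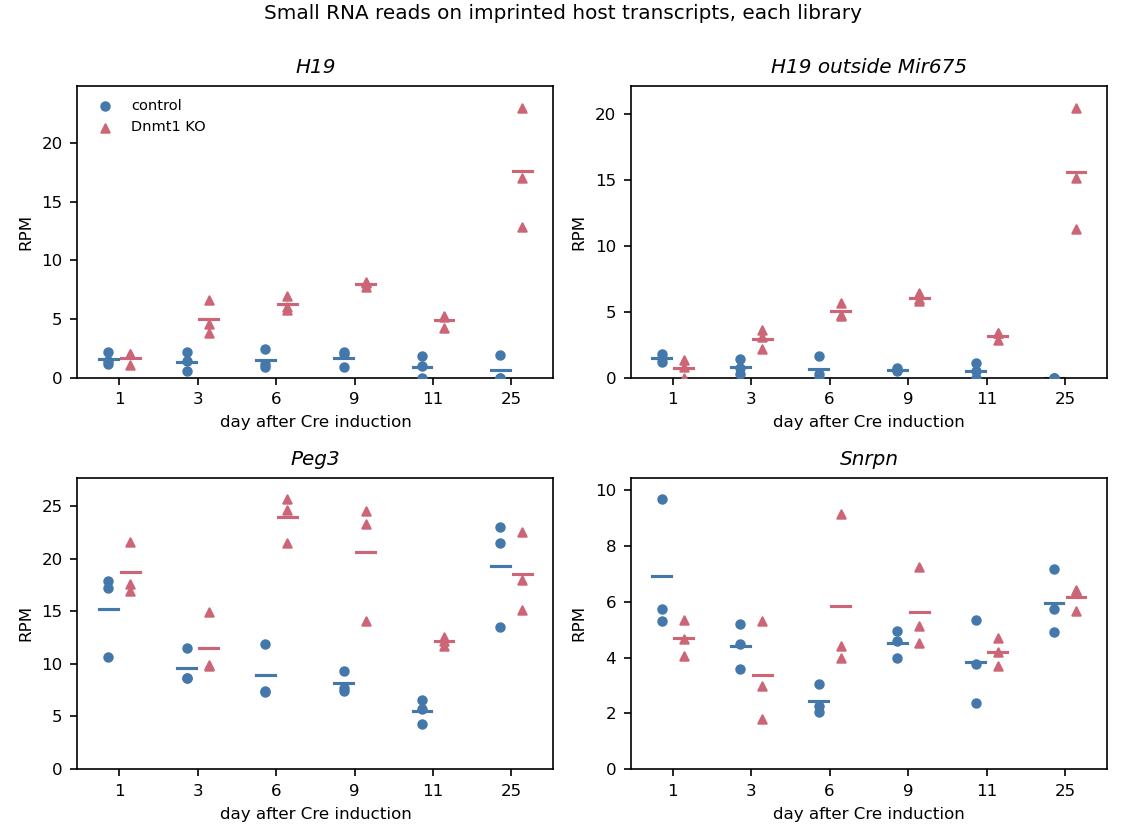
RPM on *H19*, on *H19* without its *Mir675* reads, on *Peg3* and on *Snrpn* by day, with 1 point per library (circles, control; triangles, Dnmt1 KO; 3 per group) and a bar at each mean. *H19* reaches 12.9 to 23.1 RPM in Dnmt1 KO on day 25, *Peg3* separates on days 6, 9 and 11, and *Snrpn* separates only on day 6.

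For *Igf2* and *Snrpn* no difference over the time course was detectable at this depth. *Igf2* ranged from 0 to 9.37 RPM, and 80.8% of its 459 reads lay in *Mir483*. The Dnmt1 KO mean was higher on 3 of 6 days and the mean difference was 0.32 RPM (permutation test, p = 0.595). On day 9 the groups did not overlap, at 3.87, 4.76 and 4.18 RPM in control and 9.37, 5.66 and 5.45 in Dnmt1 KO, where 7.11% of features with a read had every Dnmt1 KO library higher. *Snrpn* ranged from 1.80 to 9.69 RPM, with a higher mean in Dnmt1 KO on 4 of 6 days and a mean difference of 0.31 RPM (permutation test, p = 0.589). It was apart on day 6, at 3.05, 2.06 and 2.27 RPM against 3.9996, 9.17 and 4.43, a day on which 9.93% of features with a read had every Dnmt1 KO library higher. A separation on 1 day was not tested for either gene.

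The genotype difference itself changed with time. From day 1 to day 11 it grew by 1.32 ± 0.13 on the log2 scale for *Mir335* (interaction, limma adjusted p = 1.14e-10), by 0.56 ± 0.13 for *Mir298* (adjusted p = 0.0031) and by 0.53 ± 0.15 for *Mir296* (adjusted p = 0.02). It grew by 1.78 ± 0.55 for *H19* (limma adjusted p = 0.0338), in the fit whose filter *H19* passed only through Dnmt1 KO libraries of day 25. The 0.88 ± 0.34 of *Peg3* was not called (limma adjusted p = 0.114). With *H19* left aside, 4 of 5 features were called higher in this interaction, against 6.04% of all features. These were *Mir335*, its host *Mest*, *Mir298* and *Mir296*. With library totals 43.5% of all calls were higher, instead of 67.0%. The *H19* call was lost without day 1 Dnmt1 KO or control replicate 2, day 11 Dnmt1 KO replicate 2, or day 11 control replicate 2 or 3. The *Mir296* call was lost without day 1 control replicate 2 or day 11 control replicate 2 or 3, and with library totals (0.36, adjusted p = 0.159). With low features kept, *H19* (1.77, adjusted p = 0.201), *Mir296* (adjusted p = 0.582) and *Mir298* (adjusted p = 0.453) were no longer called in it. From day 1 to day 25, *H19* left aside, 2 of 5 features were called higher, *Mir335* and its host (0.40 ± 0.13, limma adjusted p = 0.0264), against 9.72% of all features (29.2% instead of 48.7% of the calls were higher with library totals). For *H19* the change was 3.33 ± 0.52 with all features kept (limma adjusted p = 7.19e-05). For *Mir335* that call was lost with low features kept (0.23, adjusted p = 0.537), with library totals (0.20, adjusted p = 0.243) and without day 1 control replicate 2 or 3, day 25 control replicate 3 or day 25 Dnmt1 KO replicate 2. Within a genotype, from day 1 to day 25 and without *H19*, 3 of 5 features were called in control (50.9% of all features) and 4 of 5 in Dnmt1 KO (47.1%). The libraries of these days also differed in depth and in the fibroblast list (in control 9177 to 11333 RPM on day 1 and 954 to 1049.6 on day 25). The part of these was not tested. Averaged over the 6 days, the 5 features other than *H19* were all called higher, against 16.6% of all features, with log2 differences from 0.25 (*Mir298*) upward. With all features kept, *H19* was 1.69 ± 0.15 higher over the 6 days (limma adjusted p = 2.24e-10).

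**Figure D3:**
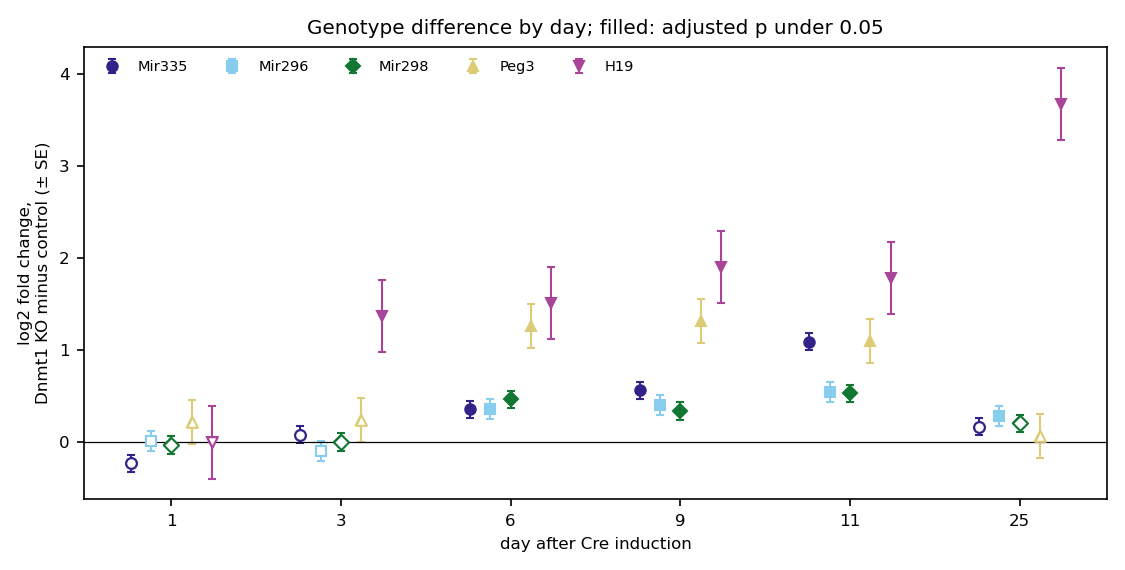
Log2 fold change of Dnmt1 KO minus control on the log2(RPM + 1) scale, by day, for the 5 loci in the fit (*Mest*, which has the reads of *Mir335*, is left out). Points are limma estimates with their SE, filled where the adjusted p was under 0.05. All 5 are filled on days 6, 9 and 11, and *H19* stands at 3.68 on day 25, the day through which it passed the filter.

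The further 30 libraries with an R1 suffix repeat the names of the time course libraries and may not be separate samples. Of their counts above 0, 95.38% to 96.86% were even, so both ends of a fragment may have been counted. In a fit of their own, *Mir335* differed by 0.52, 0.55 and 1.1 on days 6, 9 and 11 and *Mir298* by 0.52, 0.40 and 0.54, all called. *Mir296* was called on day 6 (0.59, limma adjusted p = 0.0217) but not on day 9 (0.33, adjusted p = 0.427) or day 11 (0.56, adjusted p = 0.0568). *Peg3* differed by 1.03, 1.16 and 1.205 without being called, at an SE of 0.54. *H19* did not pass the filter there.

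Of 54 other imprinted genes, listed as maternally expressed, paternally expressed, or mixed or tissue-dependent, 49 had a feature and 12 were in the time course fit. The shares of all features called lower were 0.93%, 1.74%, 9.33%, 6.12%, 2.36% and 17% on days 1 to 25, and the shares called higher are those given above, and the counts of single days among 12 features are not read as a result about this list. On day 1, 1 was called higher and 0 lower. On day 3 none was called, while 4 were called higher and 2 lower on day 6. The numbers were 3 higher and 2 lower for day 9, then 2 higher and 1 lower for day 11, and finally 3 higher and 3 lower for day 25. Averaged over the days, 3 of 4 paternally expressed genes were called higher and 0 lower, and 3 of 6 maternally expressed genes higher and 1 lower, where 16.6% of all features were called higher and 10.1% lower. Of the 2 mixed or tissue-dependent genes, *Gnas* and *Grb10*, 0 were called higher and 1 lower, which was *Grb10* (−1.19 ± 0.10, limma adjusted p = 1.18e-12). *Peg10*, a retrotransposon-derived paternally expressed gene, rose most on day 6, from a mean of 14.1 RPM to 49.4 (log2 fold change 1.65 ± 0.18, limma adjusted p = 6.59e-10). *Zdbf2*, paternally expressed as well, rose from 5.53 to 13.505 RPM on that day (1.07 ± 0.26, adjusted p = 0.00189). *Grb10*, an adaptor protein that restrains growth signalling, was lower in Dnmt1 KO on days 6, 9, 11 and 25, from 10.1 against 4.71 RPM on day 6 (−1.07 ± 0.25, limma adjusted p = 0.00134) to 18.8 against 1.59 RPM on day 25 (−2.81 ± 0.25, adjusted p = 3.94e-12). *Calcr*, the calcitonin receptor, changed by −1.53 ± 0.23 on day 6 (limma adjusted p = 2.00e-06). The change at day 25 was −1.16 ± 0.23 (adjusted p = 1.37e-04). Within a genotype, from day 1 to day 25, *Igf2r* (1.15 ± 0.18, limma adjusted p = 1.17e-06) and *Commd1* (1.31 ± 0.30, adjusted p = 3.44e-04) rose in control, and *Grb10* (−2.32) and *Ppp1r9a* (−1.02) fell in Dnmt1 KO.

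Over the 36 libraries the features most like *Mir335* were *Mir181d* (Pearson r = 0.92 of log2(RPM + 1)), *Mir672* (0.91) and its host *C77370* (0.91). Those most like *Mir296* were 2 copies of *SNORD113* (0.82 and 0.81) and *Mir758* (0.80), all 3 in the imprinted *Dlk1-Dio3* region of chromosome 12. Those most like *Mir298* were *Gm11019* (0.86), *Eda* (0.83) and *Mir676* (0.82), the last lying inside *Eda* on the X chromosome. The neighbours *Mir296* and *Mir298* had an r of 0.47, *Mir335* and *Peg3* of 0.72, and *Mir335* and *Mir298* of −0.33. The points share days, genotypes and library depth, so these values are a description only.

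AGO2 is an Argonaute protein that executes miRNA silencing, and its pull-downs were sequenced as small RNA. Control pull-downs held 11497718 to 25423038 reads and Dnmt1 KO pull-downs 1152390 to 11520133. The libraries stood apart by replicate number, with replicates 1 and 2 on one side and 3 and 4 on the other. *Igf2* had a mean of 86.6 RPM in control replicates 1 and 2 and 11.25 RPM in 3 and 4, and *Mir298* in Dnmt1 KO had 10671 and 21047. Results were therefore also computed with each pair averaged. Compared with the total small RNA of day 9, a separate set of libraries, the mean control level in AGO2 was 2.81 times as high for *Mir298*, 1.90 times for *Mir296* and 1.35 times for *Mir335*. *Mir483*, the miRNA in *Igf2*, was 12.9 times as high (7.51 times without control replicate 2, and 23.1 and 2.75 times in replicates 1 and 2 and in 3 and 4). *Peg3* was 0.062 times and *Snrpn* 0.021 times as high (0.0092 times without control replicate 2), and *Mest* outside *Mir335* 0.053 times. In the control pull-downs these rest on 41 reads of *Peg3*, 6 of *Snrpn* and 7 of *Mest* outside *Mir335*. The control library titled none, which the study's methods may describe as negative control beads, also held 9780.4 RPM of *Mir298* (8986 to 10626, 559 reads), 385 of *Mir296* (241 to 583, 22 reads) and 1557 of *Mir335* (1251 to 1916, 89 reads). For *Mir296* and *Mir335* this is within the range of the AGO2 control libraries, and for *Mir298* below it. The ratios of RPM were not tested and are not a measure of loading on AGO2 alone.

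Of the members, 5 entered the AGO2 fit of 456 features, and 3 were called higher in Dnmt1 KO, against 24.8% of all features (with library totals 86.7% instead of 68.1% of all calls were higher, and the median over the features shifted by 0.25). These were *Mir296*, *Mir335* and its host *Mest*. In AGO2 99.99% of the *Mest* reads lay in *Mir335* (184347 of 184359), so *Mest* and *Mir335* are not separate results. *Mir296* held 342, 438, 298 and 432 RPM in the control pull-downs and 789, 1030.3, 858 and 714 in Dnmt1 KO. The groups did not overlap, as was the case for 31.6% of the 456 features, and the difference was 1.88-fold in the fit (0.91 ± 0.17, limma adjusted p = 0.00292). With replicate pairs averaged it was of the same size but not called (limma adjusted p = 0.124). *Mir335* held 1818, 2257, 1543 and 1557 RPM against 4432, 3665, 2822 and 2355, again without overlap (1.52-fold, 0.60 ± 0.20, limma adjusted p = 0.0428). This call was lost without any library but Dnmt1 KO replicate 4, with median-ratio factors (0.47, adjusted p = 0.0708) and with pairs averaged (adjusted p = 0.302). It turned in sign, to −0.31, when low features were kept, as *Mir296* did, to −0.0028. *Mir298* held 15190.0, 13924, 11354 and 11774 RPM against 10701, 10640.5, 20463 and 21631, with Dnmt1 KO below control in replicates 1 and 2 and above it in 3 and 4, and was not called (−0.05 ± 0.27, limma adjusted p = 0.93; with low features kept it was −0.97 and called). *Igf2* held 64.4, 109, 13.9 and 8.57 RPM against 69.4, 59.2, 29.6 and 15.4 and overlapped (limma adjusted p = 0.986). The fibroblast list was 1336 to 1831 RPM in control and 3698 to 4367 in Dnmt1 KO pull-downs and the blood list 1105 to 1474 and 3152 to 6178, and their part was not tested.

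Among the rare members, *Mir675*, *H19* and *Peg3* were higher in the Dnmt1 KO pull-downs. *Mir675* held 0.551, 1.305, 0 and 0.0393 RPM in control and 4.34, 9.01, 5.63 and 3.47 in Dnmt1 KO, a difference of 5.14 RPM. All 4 Dnmt1 KO libraries were higher (exact permutation test, two-sided, p = 0.0286, the smallest that 4 against 4 allows), where 2.98% of all features with a read had the groups apart in this direction. *H19* (0.763 against 10.1 RPM on average) and *Peg3* (0.505 against 2.21) gave the same p. Permuted within the 4 replicate numbers instead, all of these, and *Snrpn* and *Igf2* outside *Mir483*, gave p = 0.125 (exact permutation test, two-sided), the smallest that 4 pairs allow, with 4 of 4 pairs higher. With the genotypes pooled, *Mir675* took 59.9% of the *H19* reads in AGO2 (106 of 177, 95% Wilson interval 52.5 to 66.8%), compared with 31.8% in the time course (143 of 450, 27.6 to 36.2%). In control the intervals overlapped, at 60.9% in AGO2 (28 of 46, 46.5 to 73.6%) and 49.3% in the time course (34 of 69, 37.8 to 60.8%). In Dnmt1 KO they were apart, at 59.5% (78 of 131, 51.0 to 67.6%) and 28.6% (109 of 381, 24.3 to 33.3%). *Snrpn* held 0.0459, 0.261, 0 and 0.0787 RPM against 0.868, 1.93, 0.593 and 0.174 and overlapped (exact permutation test, p = 0.0571). *Igf2* outside *Mir483* was higher in all 4 Dnmt1 KO libraries (1.19, 0.522, 1.12 and 0.944 against 19.1, 9.65, 2.08 and 2.17 RPM; exact permutation test, p = 0.0286).

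**Figure D4:**
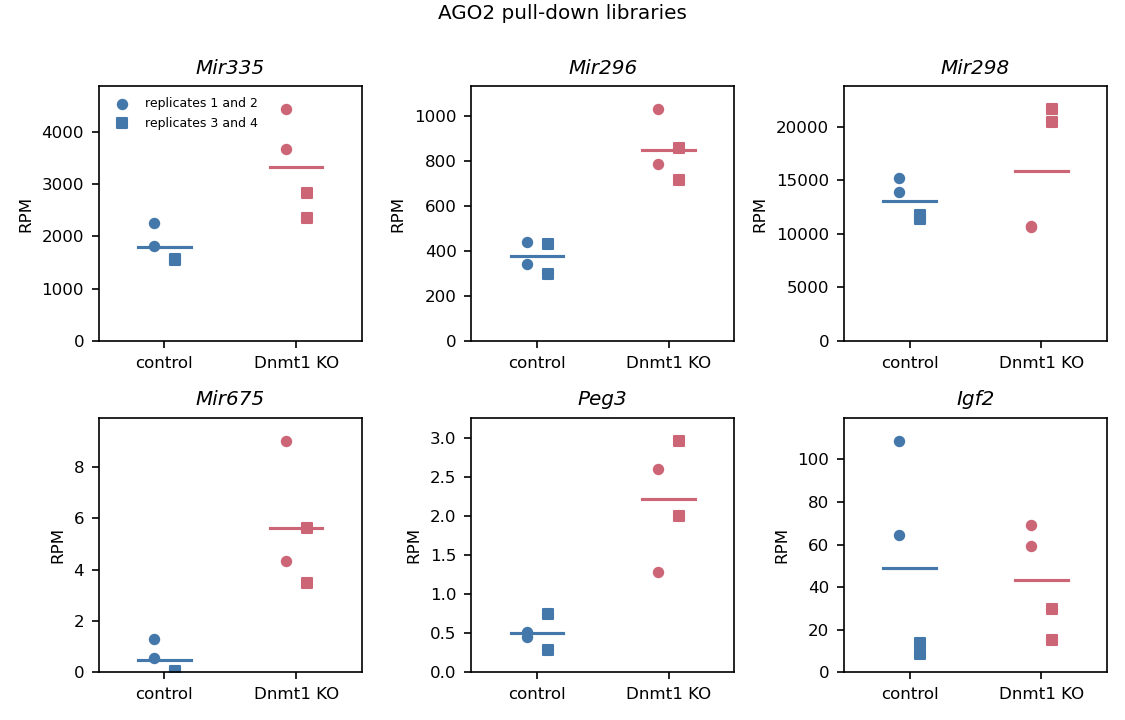
RPM of 6 members in the AGO2 pull-downs, with 1 point per library (circles, replicates 1 and 2; squares, replicates 3 and 4) and a bar at each mean of 4. *Mir335*, *Mir296*, *Mir675* and *Peg3* are higher in every Dnmt1 KO library, whereas *Mir298* and *Igf2* overlap and split by replicate pair.

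PGC libraries, from cells that lose their imprints in the course of normal development, had 1 library per stage and sex and allow no test. Intervals are exact 95% Poisson intervals and cover counting error only. The 12 ESC miRNAs summed to 12189 to 24377 RPM in them, below the range of the ESCs, although the labels tag these libraries as ESC too, and the groups follow the titles. *Mir298* held 12089.9 RPM in E13.5 females, 15869 in E13.5 males, 7948 in E14.5 females and 8288 in E14.5 males, all above the 2873 to 6226 RPM of the 18 control ESC libraries. *Mir296* held 664, 1019, 554 and 598 RPM in the same order, above every control ESC library as well. *Mir335* held 553 RPM in E13.5 females, below every control ESC library, and 1899, 1628 and 1754 in the others. *Igf2* stood out in E13.5 females, at 238 RPM (220.0 to 256, 669 reads, of which 633 lay in *Mir483*). The other 3 libraries held 16.8 (12.5 to 22.1), 9.02 (6.13 to 12.8) and 13.3 RPM (8.41 to 19.9). The shallow E13.5 libraries with the R1 suffix did not repeat the female level. They held 69.8 RPM in females (30.1 to 138, 8 reads) and 66.3 RPM in males (18.1 to 170, 4 reads). *H19* was low, at 1.34 to 2.49 RPM (3 to 7 reads), and *Mir675* had 1 read in 1 of the 4 libraries. *Peg3* held 25.9 and 18.1 RPM at E13.5 and 8.15 and 6.92 at E14.5, with intervals that did not overlap between the stages. The E14.5 male library with the R1 suffix held 19.6 RPM (12.8 to 28.7, 26 reads), within the E13.5 range, and each value is from 1 library. *Snrpn* held 5.33 to 11.4 RPM. The fibroblast list summed to 547 to 809.6 RPM and the blood list to 136 to 323 RPM in these libraries, and their part was not tested.

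**Figure D5:**
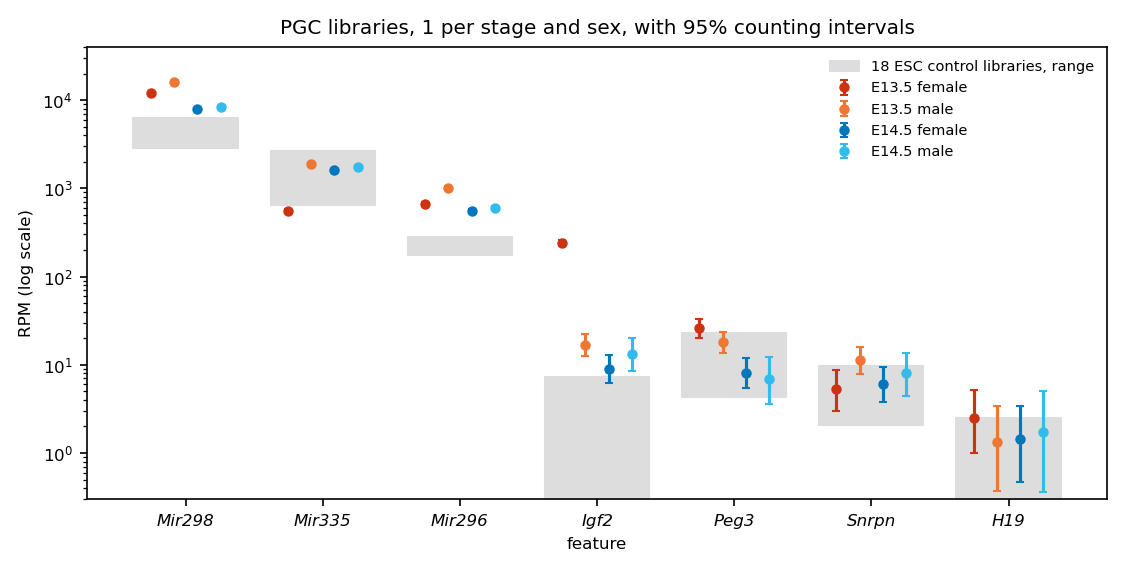
RPM (log scale) of 7 members in the 4 PGC libraries with exact 95% Poisson intervals, beside the range of the 18 control ESC libraries (grey, drawn from 0.3 RPM where the lowest library is below it). *Mir298* and *Mir296* lie above the ESC range in all 4 libraries and *Igf2* reaches 238 RPM in E13.5 females.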

How the data were processed

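Small RNA was sequenced in 83 libraries. According to the study's methods and the submitters' processing notes, the authors trimmed reads (Trim Galore 0.3.5), kept those of 20 to 24 nt, aligned them to NCBIM37 with Bowtie2 2.2.9 and quantified features in SeqMonk. The deposited values are RPKM, although the file name speaks of counts. Multiplying by feature length gave RPM, and read numbers were recovered from the step that 1 read makes, with 100% of low values whole within 5% of a step. Strand and multiple mapping in counting are not given in the sources used here.

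The 36 time course libraries entered a single fit with limma-trend 3.58.1 under R 4.3.3. Values were scaled by TMM (trims of 30% and 5%) and taken as log2(RPM + 1), with a filter of at least 10 RPM in at least 3 libraries. The 8 AGO2 libraries, which the study places on day 9, were fitted apart. p-values were adjusted by Benjamini-Hochberg over all features, with a threshold of 0.05. Members below the filter were tested by permutation within days or by exact permutation. Other imprinted genes are named where a called log2 change was at least 1 in size. Hairpins were taken off their hosts where stated. All replicate pairs differed by more than sampling noise (lowest chi-square per degree of freedom 2.34 over 48 pairs). Same-numbered AGO2 libraries deviated together in 4 of 4 pairs (r 0.194 to 0.386), and a replicate block changed the AGO2 call of no member. The permutation within AGO2 replicate numbers and the ratios to day 9 without single libraries were added after seeing the data. The members and lists were chosen with earlier results of these data known. The fits were tested on simulated data. Intervals and floors (3 reads) are at the 95% level where given and cover counting error only.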

Additional observations from a re-analysis of the deposited data

Results flagged for a closer look

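The genotype difference changed between day 1 and day 11 by a test of the change itself for *Mir335* (1.32 on the log2 scale), its host *Mest* (1.32), *Mir298* (0.56), *Mir296* (0.53) and *H19* (1.78). Between day 1 and day 25 it changed for *Mir335* (0.40) and *Mest* (0.40). *H19* was flagged for the change to day 11 (1.78) and to day 25 (3.68), but it passed the filter on low values only through its Dnmt1 KO libraries of day 25. Its flag for the change to day 25 is thus no test of it. With all features kept the change of *H19* was 1.77 to day 11, which was not called, and 3.33 to day 25. *Mir298* and *Mir296* were not called for the change to day 11 in that setting either. *Mest* and *Mir335* share nearly all reads. A pair of libraries titled none, which the study's methods may describe as negative control beads, lies outside every comparison and held reads on *Igf2*, at 402 RPM in control (23 reads of 57155, 2 in *Mir483*) and 1526 RPM in Dnmt1 KO (15 reads of 9830). This is above the AGO2 pull-downs and rests on few reads. The same pair held 9780.4 and 5493 RPM of *Mir298*, 385 and 305 of *Mir296* and 1557 and 2747 of *Mir335*. Its genotype tags are opposite to its titles, which are followed here. No library stood apart for a member by Dixon's test in the groups of 4, where chance alone gives about 1 in 20.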

How the results depend on the processing

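Of 632 values recomputed under other settings, 563 kept direction and side of the threshold, 38 lost the call, 4 gained it and 27 turned in sign. Of 688 values with 1 library left out, the numbers were 614, 51, 3 and 20. The causes were not tested. The number of members called counts *H19* here, although its Dnmt1 KO libraries of day 25 carried it through the filter. It fell on day 3 from 1 to 0 (pseudocount 0.5, no filter, hosts without their miRNA reads, R1 libraries) and on day 6 from 6 to 2 (no filter). On days 9 and 11 it fell from 6 to 3 in the R1 libraries, which were shallower and where *H19* did not pass the filter. On day 25 it fell from 2 to 1 (library totals, no filter, voom, replicate block, each day alone). For the change from day 1 to day 11 it fell from 5 to 2 (no filter), for that to day 25 from 3 to 1 (library totals, no filter), for Dnmt1 KO from day 1 to day 25 from 5 to 3 (hosts without their miRNA reads), and for AGO2 from 3 to 1 (median-ratio factors) or 0 (averaged pairs). Without 1 library it ranged over 0 to 1 on day 3, 3 to 6 on day 6, 4 to 6 on day 9 and 1 to 2 on day 25. The ranges were 3 to 5 and 1 to 3 for the changes to days 11 and 25, and 1 to 3 in AGO2.

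The values that turned in sign were not called in either setting, apart from the main values of *Mir335*, *Mest* and *Mir296* in AGO2. With library totals these were *H19* (0.051) and *Mir298* (0.057) on day 1, *Mir298* on day 3 (−0.017), *Peg3* on day 25 (−0.041) and in Dnmt1 KO over time (−0.023), and *Mir298* in AGO2 (0.21). Median-ratio factors gave *H19* on day 1 (0.0021) and *Igf2* in AGO2 (−0.11). With no filter they were *H19* (0.067) and *Mir298* (0.10) on day 1, *Mir298* on day 3 (−0.040), *Mir296* (−0.094) and *Peg3* (−0.018) in control over time, *Peg3* in Dnmt1 KO over time (−0.33), and in AGO2 *Igf2* (−0.87), *Mest* (−0.31), *Mir335* (−0.31) and *Mir296* (−0.0028). With hosts without their miRNA reads they were *Mir296* on day 1 (−0.023) and *Mir298* on day 3 (−0.022), and in the R1 libraries *Mir296* on day 1 (−0.18) and *Mest* (−0.041), *Mir335* (−0.046) and *Peg3* (−0.29) on day 3. A pseudocount of 5 gave *Igf2* −0.029 in AGO2, and voom gave *Igf2* −0.31 and *Mir298* 0.024 there. Without 1 library, day 1 ranged over −0.12 to 0.17 for *H19*, −0.035 to 0.063 for *Mir296* and −0.15 to 0.040 for *Mir298*. *Peg3* ranged over −0.17 to 0.19 on day 25, −0.35 to 0.037 for the change to day 25, −0.012 to 0.43 in control and −0.037 to 0.16 in Dnmt1 KO over time, and AGO2 over −0.56 to 0.56 for *Igf2* and −0.39 to 0.034 for *Mir298*.

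Same-numbered time course libraries did not deviate together (r −0.066 to 0.047), and the replicate block ended 1 member call, *Mir296* on day 25 (adjusted p = 0.055 by limma). Day 25 libraries are the shallowest, which limits *H19*, *Mir675*, *Igf2* and *Snrpn* there to a few reads.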

Other observations

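PGC libraries with an R1 suffix were not used in the comparisons. The E13.5 pair held 60317 (male) and 114631 (female) reads, and its *Igf2* feature had 4 and 8 reads, all in *Mir483*. *Mir298* had 0 RPM in the male and 1117 RPM in the female library, where the libraries without the suffix held 15869 and 12090 RPM. The E14.5 male R1 library, with 1328606 reads, held 15284 RPM of *Mir298*, 1786 RPM of *Mir335* and 963 RPM of *Mir296*.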
